A study of Mus musculus with 7 samples.

Results

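The microRNAs (miRNAs) described here are those tied to red blood cells: every entry of the deposited count table whose name begins with miR-451, miR-144 or miR-486. This name rule found 8 of 1915 entries, namely mmu-miR-451a, mmu-miR-451b, mmu-miR-144-3p, mmu-miR-144-5p and both arms of miR-486a and miR-486b. Small RNA of the colorectum was sequenced from 6 wild-type C57BL/6 female mice, all 7 weeks old by the labels when injected. M4, M5 and M6 form the CRC (colorectal cancer) group. They were injected with 10 mg/kg of the carcinogen azoxymethane (AOM), and after 5 days drank dextran sodium sulfate (DSS, a chemical that wounds the gut epithelium) at 2.5% over 7 days. A phase of 14 days on plain water and sampling at a stage T1, day 17, are also in their labels. M1, M2 and M3 form the healthy group, given 0.9% NaCl instead of AOM. The carcinogen, the wounding and any tumours cannot be told apart, since neither agent was given by itself.

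In red blood cell precursors, the transcription factor GATA1 switches on a transcript that carries the hairpins of both miR-144 and miR-451a. miR-451a is among the most abundant miRNAs of mature red cells. It is known for a maturation route of its own: its short hairpin is cut by the Argonaute protein Ago2, without the nuclease Dicer that makes most other miRNAs. miR-144 restrains Nfe2l2 (Nrf2), a regulator of the oxidative stress response, and miR-451a restrains Ywhaz, a 14-3-3 protein, and loss of the locus leaves red cells sensitive to oxidants. miR-486, encoded within the ankyrin gene Ank1, is made in red cell precursors and in muscle and restrains Foxo1. Because red cells carry these miRNAs in the circulation, miR-451a is widely used to judge the red cell content of a sample.

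RefSeq, on GRCm38.p6, held the sequences of 4 of the 8 entries. The mature sequences are shown 5′ to 3′ with the seed, bases 2 to 8, in capitals, because miR-451a and the arms of miR-144 share a transcript but not a seed. Each is letter for letter the sequence in the deposited table.
miR-451a: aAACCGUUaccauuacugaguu
miR-144-3p: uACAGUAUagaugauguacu
miR-144-5p: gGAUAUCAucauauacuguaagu
miR-451b: uGGGAGCAgcaagagaaccgu
miR-101a-3p: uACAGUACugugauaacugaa
No 2 of the 4 members have the same seed. miR-101a-3p, which is no member, is shown because it shares bases 2 to 7, but not 2 to 8, with miR-144-3p. It was the only entry of the table outside the members to share bases 2 to 7 with any of these 4.

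All 4 mature sequences come from chromosome 11. The Mir144 hairpin lies at chr11:78073005-78073070 on the plus strand and the Mir451a hairpin at chr11:78073170-78073241 on the same strand, 99 bases further on. Mir451b is annotated at the same place as Mir451a on the minus strand. In GENCODE M21 neither hairpin lies inside a protein-coding gene. Eral1, on the minus strand, lies 134 bases past Mir451a, and Flot2 ends 12570 bases before Mir144. The hairpins are given with their mature arms in capitals, to show that miR-144 has an arm on each side of its loop while miR-451a has a single mature product.
Mir144 hairpin: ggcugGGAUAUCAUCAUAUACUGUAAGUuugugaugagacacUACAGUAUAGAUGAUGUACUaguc
Mir451a hairpin: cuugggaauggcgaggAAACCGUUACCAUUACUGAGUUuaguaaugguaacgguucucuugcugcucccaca
In folds predicted by RNAfold, the 23 bases of miR-144-5p lay before the loop and the 20 bases of miR-144-3p after it. Of the 22 bases of miR-451a, 18 lay before the loop and the last 4 filled it. The predicted fold held 27 base pairs for Mir144 and 30 for Mir451a.

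Total miRNA reads ran from 8222508 to 15280434 in healthy and from 3206127 to 6601899 in CRC mice. Mouse M1 has 2 libraries in the labels but a single column in the table, which entered as 1 profile. Levels are CPM, the read count as a share of the library's total, with totals scaled by trimmed mean of M-values (TMM), a method that lines up the bulk of miRNAs between libraries. TMM factors were 0.582 to 1.10 in healthy and 0.948 to 1.55 in CRC mice. Scaling by totals alone moved the median log2 fold change over all tested miRNAs from -0.03 to 0.62, so directions are relative to the TMM scale. The tissue's own miRNAs were present in every mouse: the enterocyte miRNA miR-192-5p had 26551 to 65524 CPM, and 6 smooth muscle miRNAs summed to 44677 to 824716 CPM. Across the 279 miRNAs with a mean of at least 50 CPM, the log2 profile of the healthy mouse M3 was nearest to that of the CRC mouse M4 (r = 0.966, a description across miRNAs), and other pairs from different groups had r of at most 0.908. Values without these mice are given where they change a call.

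miR-451a was by far the most abundant member and was highest in the CRC mice M5 and M6. Among the healthy mice, mmu-miR-451a stood at 337 (M1), 271 (M2) and 479 (M3) CPM, and among the CRC mice at 439 (M4), 1642 (M5) and 896 (M6) CPM. The groups overlapped, because the CRC mouse M4 lay below the healthy mouse M3. By read count it ranked between 121st and 144th of all entries in the healthy mice, 124th in M4, 60th in M5 and 79th in M6. Group means were 362 ± 106.3 CPM for healthy and 992 ± 607 CPM for CRC (SD, n = 3 each). This is a log2 fold change of 1.45 (SE 0.53) for CRC against healthy, which edgeR's quasi-likelihood test did not call at 0.05 (adjusted p = 0.137). On unscaled totals the CPM values were 243 (M1), 157 (M2), 528 (M3), 416 (M4), 2544 (M5) and 1314 (M6), which is the same order of mice. M5 and M6 also had the fewest reads (3565435 and 3206127) and the largest TMM factors (1.55 and 1.47). The part of depth in these levels was not tested.

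**Figure D1:**
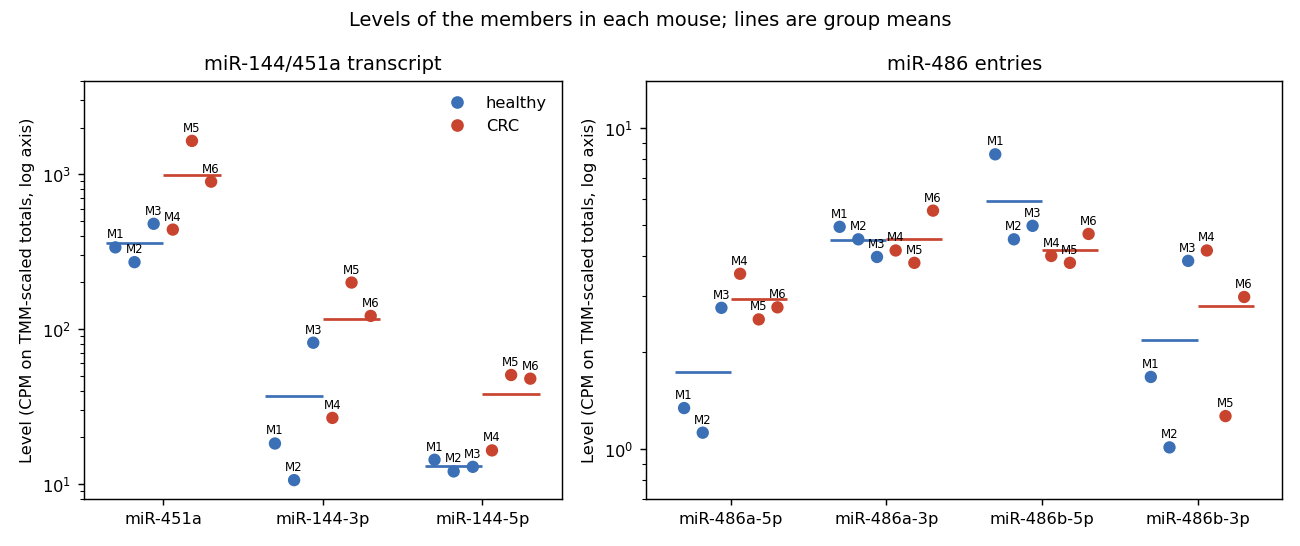
Level of 7 of the members in each mouse, in CPM on TMM-scaled totals (log axes), with healthy mice in blue, CRC mice in red and lines at group means. M5 and M6 stood highest for miR-451a (1642 and 896 CPM), miR-144-3p and miR-144-5p, M3 stood near them only for miR-144-3p (81.6 CPM), and no miR-486 entry passed 8.28 CPM in any mouse.

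miR-144-5p, the strand from the 5′ side of the Mir144 hairpin, was the only member whose groups did not overlap on the TMM scale. Healthy values of mmu-miR-144-5p were 14.3 (M1), 12.04 (M2) and 12.9 (M3) CPM, and CRC values were 16.5 (M4), 50.5 (M5) and 47.8 (M6) CPM. The step from the highest healthy mouse to M4 rested on 128 reads in M1 and 103 reads in M4, whose 95% counting intervals of 11.9 to 17.03 CPM and 13.4 to 19.96 CPM overlap. Among all tested miRNAs, 14.1% had each CRC mouse above each healthy mouse. edgeR gave the arm a log2 fold change of 1.55 (SE 0.52) and an adjusted p = 0.119. Of the 7 members that passed the filter on low counts, 0 were called, against 2.28% of the 878 tested miRNAs. At an unadjusted p under 0.05 there were 2, miR-451a and miR-144-5p, where the whole table had 23.2%.

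miR-144-3p, the arm that targets Nfe2l2, varied most, and within the groups more than between them. In the healthy mice mmu-miR-144-3p was at 18.2 (M1), 10.6 (M2) and, well above these, 81.6 CPM (M3). In the CRC mice it was at 26.7 (M4), 199.7 (M5) and 121.6 (M6) CPM, so the groups overlapped. The highest mouse of the healthy group stood 7.72-fold above the lowest, and the CRC group spanned 7.48-fold. M3 was 3.06-fold above M4, a gap far outside the 95% counting intervals of 75.9 to 87.7 CPM in M3 and 22.8 to 31.1 CPM in M4. edgeR gave a log2 fold change of 1.65 (SE 0.87) and an adjusted p = 0.285. Leaving out M3 raised this to 2.89 (SE 0.81), still not called (adjusted p = 0.0660, edgeR).

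**Figure D2:**
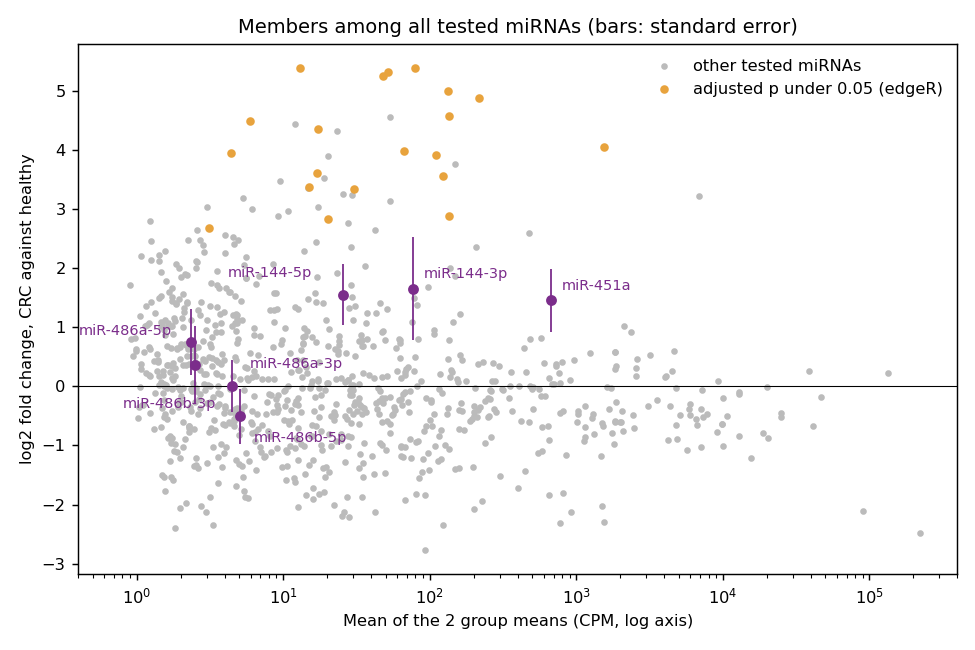
Log2 fold change of CRC against healthy for 878 tested miRNAs (vertical axis) against the mean of both group means in CPM (log axis), with the tested members in purple (bars: standard error) and the miRNAs at an adjusted p under 0.05 in orange. The 3 members from the transcript of miR-144 and miR-451a lie between 1.45 and 1.65, above most miRNAs but below the called ones, and the miR-486 entries lie between -0.51 and 0.75.

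The calls on these members depended on the mouse M4. With that mouse left out, edgeR called miR-451a (log2 fold change 1.89, SE 0.42, adjusted p = 0.0179) and miR-144-5p (2.004, SE 0.38, adjusted p = 0.00847), so both rose in that fit. miR-144-3p then had 2.18 (SE 0.77) and an adjusted p = 0.0747 in edgeR. That fit called 237 of 1188 tested miRNAs, so a call there is common. Without M5 the log2 fold change of miR-451a was 0.90 (SE 0.52), and that of miR-144-3p was 1.03 (SE 0.92). The log2 fold change was positive for all 3 members in each of the alternatives that gave a value. DESeq2 gave miR-144-5p an adjusted p = 0.0371 on all 6 mice, and miR-451a an adjusted p = 0.0633. With M3 and M4 both left out, miR-451a had 1.76, miR-144-3p 3.18 and miR-144-5p 1.61, and edgeR called all 3, in a fit that called 576 of 1082 tested. That setting was added after seeing the data. It takes out the overlap of the groups in miR-451a and miR-144-3p, where M4 lay below M3, so no conclusion is drawn from its calls.

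**Figure D3:**
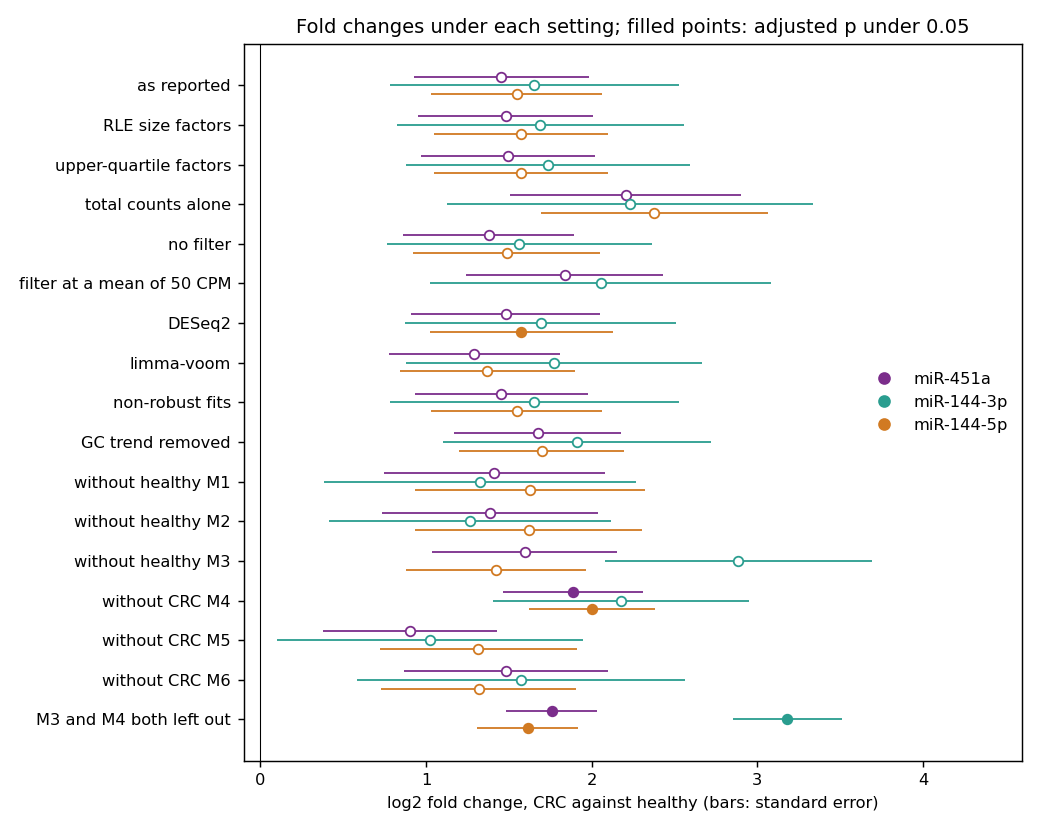
Log2 fold change of CRC against healthy with its standard error for miR-451a, miR-144-3p and miR-144-5p under each setting named on the vertical axis; filled points have an adjusted p under 0.05. All points lie above 0, the lowest at 0.90 and the highest at 3.18, and the filled ones are confined to DESeq2 and the fits without M4 or without both M3 and M4.

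The balance between the arms of miR-144 differed between mice more than between groups. The ratio of miR-144-5p to miR-144-3p reads does not depend on how a library is scaled. It was 0.786 (M1), 1.14 (M2) and 0.158 (M3) in healthy mice, and 0.618 (M4), 0.253 (M5) and 0.394 (M6) in CRC mice. The 3p arm was thus in excess in 5 of the 6 mice, most of all in the healthy mouse M3. The log2 ratio changed by -0.40 between CRC and healthy (SE 0.74, adjusted p = 0.784, limma over 235 hairpins). This value was -1.26 without M3 and 0.16 without M2, neither called. Without both M3 and M4, a setting added after seeing the data, it was -1.58 and was called (adjusted p = 0.0130, limma). The share of hairpins called in that setting was not computed, but edgeR called 576 of 1082 tested miRNAs there. With all mice, where the miR-144 ratio was not called, 0.426% of these hairpins were. Its span of 2.84 log2 units over the mice was the 64th widest of the 235, where the median span was 2.10. Many of the wider spans came from hairpins with an arm under a mean of 50 counts, unlike miR-144. How common such a span is at the depth of miR-144 was not tested. In M3 the 161 tested miRNAs with a GC content of at most 40%, as all arms of this transcript have, lay at a median of 0.16 log2 units above their own mean over mice. The same median was 0.14 in M1 and 0.08 in M2, where miR-144-3p was low, and -0.21 (M4), -0.03 (M5) and -0.00048 (M6) in the CRC mice. The part of base composition in the level of miR-144-3p in M3 was not tested.

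The miR-144-5p arm kept a steadier ratio to miR-451a over the mice than the miR-144-3p arm did. miR-144-5p and miR-451a were both highest in M5 and M6, but the order of the other mice differed between them. The log2 ratio of miR-144-5p to miR-451a stayed between -5.21 (M3) and -4.22 (M6). Its mean was -4.75 ± 0.40 in healthy and -4.66 ± 0.40 in CRC mice (SD, n = 3 each). The exact two-sided permutation test gave p = 0.8, or 0.8 adjusted over the 4 ratios tested. The log2 ratio of miR-144-3p to miR-451a ran from -4.67 in M2 to -2.55 in M3, with M1 at -4.20, M4 at -4.04, M5 at -3.04 and M6 at -2.88. The difference between the groups was 0.49 (exact two-sided permutation p = 0.6, adjusted 0.8), and ran from 0.06 without M2 to 1.12 without M3. With 3 mice against 3 this test cannot give a p under 0.1.

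As a measure of likeness, profiles of log2 CPM were centred on their mean over the 6 mice and compared by the root mean square difference. miR-144-5p lay 0.33 log2 units from miR-451a. Of the 278 other miRNAs with a mean of at least 50 CPM, 0 lay nearer than that. miR-144-5p itself, at a mean of 25.7 CPM, is under this limit, and other miRNAs under it were not compared. The nearest of the 278 was miR-106b-5p, of a cluster tied to cell division, at 0.37. It was followed by miR-126b-3p and miR-126a-5p at 0.44 each, miR-690 at 0.46 and miR-5099 at 0.48. The entries miR-126b-3p and miR-126a-5p are reverse complements over 21 bases and had nearly equal CPM in every mouse, so they may not be separate measurements. miR-144-3p ranked 31st, at 0.77, where the median was 1.21. These distances are descriptions over 6 profiles that also differ in depth and tissue makeup.

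In blood, miR-451a is set against miR-23a-3p, a miRNA little affected by red cell lysis, to judge red cell content. In the colorectum, where other cells make miR-23a-3p, the ratio was far below 1 in every mouse. Healthy values were 0.0126 (M1), 0.00911 (M2) and 0.0316 (M3), and CRC values 0.0220 (M4), 0.145 (M5) and 0.0863 (M6). M5 and M6 again stood above the rest, and M4 lay between the healthy mice. The log2 ratio was -6.02 ± 0.93 in healthy and -3.94 ± 1.40 in CRC mice (SD, n = 3 each), a difference of 2.08 (exact two-sided permutation p = 0.2, adjusted 0.8). miR-23a-3p itself was not called either, with a log2 fold change of -0.78 (SE 0.41) on the TMM scale and -0.04 on totals alone (edgeR). With miR-103-3p as the denominator the difference was 1.85, and with miR-191-5p it was 1.87.

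**Figure D4:**
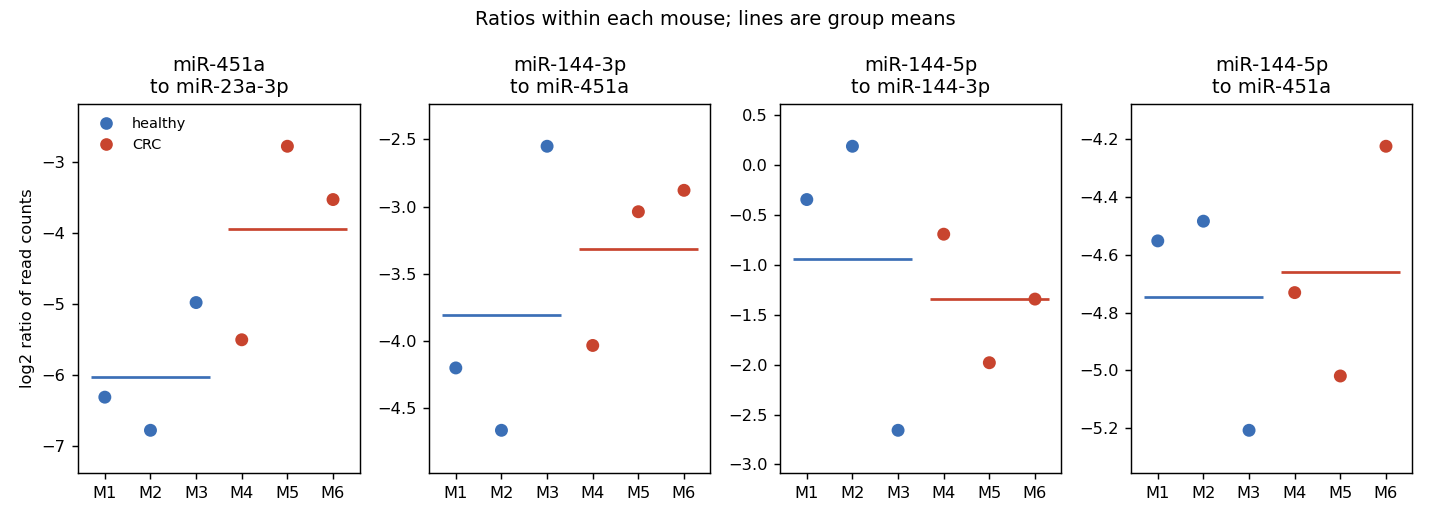
Log2 ratio of read counts within each mouse (M1 to M3 healthy, blue; M4 to M6 CRC, red; lines at group means) for miR-451a to miR-23a-3p, miR-144-3p to miR-451a, miR-144-5p to miR-144-3p and miR-144-5p to miR-451a; the vertical axes differ. M3 holds the lowest 5p to 3p ratio of miR-144 (-2.66), while the ratio of miR-144-5p to miR-451a stays within -5.21 to -4.22.

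The miR-486 entries were low, at 7 to 74 reads a mouse, and on the TMM scale did not follow miR-451a. Reads of miR-486a-5p numbered 12 (M1), 10 (M2) and 25 (M3) in healthy mice and 22 (M4), 14 (M5) and 13 (M6) in CRC mice. In CPM the healthy mice spanned 1.13 to 2.75 and the CRC mice 2.54 to 3.52, so the groups overlapped. M5, the mouse highest in miR-451a, was the lowest CRC mouse here, but within counting error. The counting intervals were 1.39 to 4.25 CPM (M5), 1.47 to 4.73 CPM (M6) and 2.20 to 5.32 CPM (M4). On totals alone the groups did not overlap. Healthy mice then had 0.654 to 3.04 CPM, and CRC mice 3.33 (M4), 3.93 (M5) and 4.05 (M6) CPM. miR-486b-3p differed on totals alone, with M5 (1.96 CPM) below M3 (4.26 CPM) and M4 (3.94 CPM). On the TMM scale the log2 fold change of miR-486a-5p was 0.75 (SE 0.55, adjusted p = 0.432, edgeR). It was 1.17 without M3, 1.30 on totals alone and 0.31 with the trend on GC content removed, and was called in none of these. miR-486b-5p was at 8.28 (M1), 4.501 (M2) and 4.96 (M3) CPM in healthy mice and at 3.995 (M4), 3.80 (M5) and 4.68 (M6) CPM in CRC mice. Its log2 fold change was -0.51 (SE 0.47, adjusted p = 0.548, edgeR) and 0.23 on totals alone.

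These 2 entries are not separate measurements. The deposited table lists the same sequence for miR-486a-5p and miR-486b-5p, yet gives them different counts, and the sources used here do not give how such reads were shared out. With the 2 entries summed, a setting added after seeing the data, the log2 fold change was -0.11 (SE 0.45, adjusted p = 0.909, edgeR). The 5p and 3p entries are reverse complements of each other over 20 bases, so without strand they could share reads too. miR-486a-3p had 3.80 to 5.53 CPM over the mice and a log2 fold change of 0.007 (SE 0.45). miR-486b-3p had 1.01 to 4.15 CPM and a log2 fold change of 0.36 (SE 0.67). With all 4 entries summed, the value was 0.02 (SE 0.44, adjusted p = 0.987, edgeR).

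miR-451b, the entry on the strand opposite to miR-451a, was all but absent. It had 2 reads in M1, 1 read in M2 and 0 in the other mice, and it did not pass the filter. With a floor of 3 reads, a count of 0 allows up to 0.365 CPM of the total in M3 and up to 0.936 CPM in M6, for counting error only. Its mature sequence and that of miR-451a lie at different places of the locus, and the longest reverse-complement run between them was 3 bases.

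miR-101a-3p, the miRNA that shares bases 2 to 7 with miR-144-3p, was far more abundant than it. The healthy mice had 9091 (M1), 9450 (M2) and 4646 (M3) CPM, while 3131 (M4), 4212 (M5) and 3589 (M6) CPM were found in the CRC mice. On the TMM scale the groups did not overlap, all CRC values being lower, as for 12.4% of tested miRNAs. On totals alone they overlapped, with 5128 to 6544 CPM in healthy and 2968 to 6525 CPM in CRC mice. The log2 fold change was -1.08 (SE 0.39, adjusted p = 0.135, edgeR) on the TMM scale, and -0.22 on totals alone.

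Further lists put the members beside other miRNAs of the red cell lineage. The red cell list held the 7 tested members with miR-16-5p and miR-92a-3p, both abundant in red cells. Of these 9, 0 passed edgeR's test, 7 had a positive log2 fold change and the median was 0.40. Over all tested miRNAs 2.28% were called, 48.5% were positive and the median was -0.03. The 9 are not independent, since miR-451a and the miR-144 arms share a transcript and the miR-486 entries overlap in sequence. The positive values also include 0.007 for miR-486a-3p, so their count is a description only. miR-16-5p, which many other cells make, ran from 7039 to 8467 CPM in healthy mice and from 4445 to 6688 CPM in CRC mice. Its log2 fold change was -0.55 (SE 0.34), and 0.11 on totals alone. On the TMM scale M5 and M6, the mice highest in miR-451a, were the lowest in miR-16-5p. On totals alone M2 was the lowest, at 4093 CPM, while M5 had 6885 CPM and M6 had 7220 CPM. miR-92a-3p, of the miR-17-92 cluster, ran from 307 to 823 CPM in healthy mice and from 583 to 761 CPM in CRC mice, with a log2 fold change of 0.40 (SE 0.46).

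The list of miRNAs known to act or to change during red cell differentiation held 15 tested miRNAs. Of these, 0 passed edgeR's test, 1 was at an unadjusted p under 0.05 and 5 had a positive log2 fold change. Over all tested miRNAs the shares were 2.28%, 23.2% and 48.5%. The median of the list was -0.48. Scaling by totals alone raised each of these 15 values. miR-221-3p, which holds back the receptor Kit and declines as red cells mature, had -0.85 (SE 0.53). miR-24-3p and miR-27a-3p had -0.64 (SE 0.47) and -0.48 (SE 0.35), and both were positive on totals alone. miR-191-5p, whose decline accompanies enucleation, had -0.51 (SE 0.50), and 0.19 on totals alone. miR-103-3p had -0.50 (SE 0.43) and the lymphocyte miRNA miR-150-5p -0.34 (SE 0.49), and both turned positive on totals alone. The highest values of the list were those of miR-155-5p (0.88, SE 0.71) and miR-96-5p (0.83, SE 0.45). miR-15a-5p had 0.47 (SE 0.54) and miR-22-3p 0.25 (SE 0.42). miR-223-3p, a myeloid miRNA that declines in the red cell line, had -0.01 (SE 0.46). The member at an unadjusted p under 0.05 was miR-376a-3p (-1.94, SE 0.53, adjusted p = 0.0746, edgeR).

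**Figure D5:**
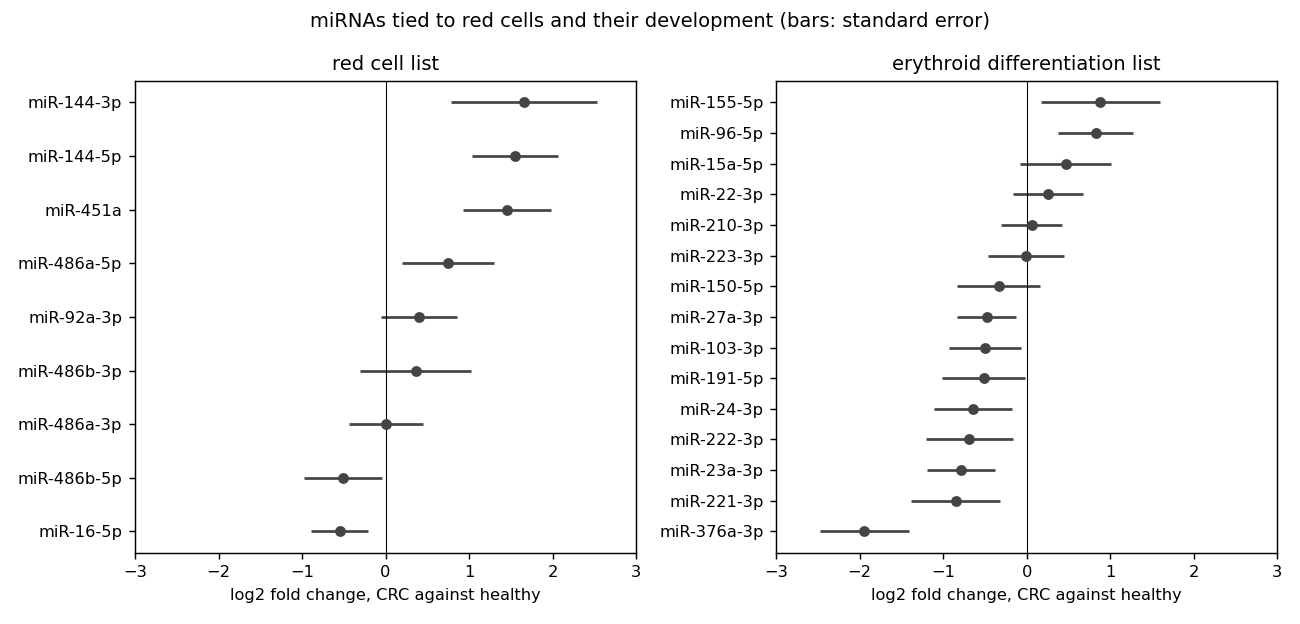
Log2 fold change of CRC against healthy with its standard error for the 9 miRNAs of the red cell list and the 15 of the erythroid differentiation list, on the TMM scale. The 3 members from the transcript of miR-144 and miR-451a lie at the top of the red cell list (1.45 to 1.65), and miR-16-5p lies at its bottom (-0.55).

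Markers of other cells are given for comparison, because in these bulk samples fewer cells of a type and less RNA per cell cannot be told apart. The endothelial miR-126a-3p, a marker of blood vessels, ran from 9829 to 12422 CPM in healthy mice and from 6988 to 11352 CPM in CRC mice, a log2 fold change of -0.19 (SE 0.34). The ratio of miR-451a to miR-126a-3p was 0.0343 (M1), 0.0218 (M2) and 0.0482 (M3) in healthy mice and 0.0387 (M4), 0.168 (M5) and 0.128 (M6) in CRC mice. M5 and M6 thus stood above the other mice in miR-451a also relative to this arm of miR-126a. The other arm, miR-126a-5p, was itself highest in M5 (2917 CPM) and M6 (2404 CPM). M4 had 1307 CPM of it and the healthy mice 1105 to 2149 CPM. Its log2 fold change was 0.58 (SE 0.45), and the ratio of miR-451a to it was not computed. The 4 miRNAs of the myeloid list, the arms of miR-223 and miR-142a, summed to 2403 to 13356 CPM in healthy mice, the highest being M3. In CRC mice they summed to 6159 to 7281 CPM. Most of the sum in M3 was miR-142a-3p (9953 CPM), while miR-223-3p had 2455 CPM there, so the sum mainly follows that arm. The 3 lymphocyte miRNAs summed to 6077 to 8153 CPM in healthy mice and to 3500 to 6539 CPM in CRC mice. The 6 epithelial miRNAs summed to 99163 to 197120 CPM in healthy mice and to 77775 to 152814 CPM in CRC mice. The 6 smooth muscle miRNAs summed to 191071 to 824716 CPM in healthy mice, 218809 CPM in M4, 45671 CPM in M5 and 44677 CPM in M6, so they were lowest in the mice highest in miR-451a. Of the 2 vessel, 4 myeloid, 3 lymphocyte, 6 epithelial and 6 smooth muscle miRNAs, 0 passed edgeR's test, 6 (all of them muscle) were at an unadjusted p under 0.05, and 0 had a count of 0 in any mouse. The shares over all tested miRNAs were 2.28% called and 23.2% below an unadjusted p of 0.05. The part of tissue makeup, or of blood held in the tissue, in the levels of miR-451a and miR-144 was not tested.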

How the data were processed

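Small RNA of the colorectum was sequenced on an Ion Proton, per the labels' protocols. Per the submitters' processing notes, BWA aligned the reads to mm10 (GRCm38). Raw counts per mature miRNA were deposited by the authors. The sources used here do not give how strand or multiple matches were handled. The mice are separate animals.

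The comparison used edgeR 4.0.16 (R 4.3.3) with TMM, filterByExpr and the robust quasi-likelihood test, two-sided, with Benjamini-Hochberg adjustment over 878 miRNAs at 0.05. The SE is the log2 fold change divided by the square root of F. Arm ratios (0.5 added to each count) were fitted in limma 3.58.1 where each arm averaged 10 counts or more. Other ratios used exact permutation. Likeness used log2 CPM with a prior count of 2. Hairpins were folded with RNAfold 2.7.2. Scripts were tested on simulated data. Alternatives were other scalings, filters, tools (DESeq2 1.42.0, limma-voom), GC trend removal by loess (span 0.75) and leaving out each mouse; leaving out M3 with M4 and summing miR-486 entries were added after seeing the data. Members and lists were chosen with earlier results of these data known. The rule for named miRNAs took all members and up to 10 of each red cell list. It also took miRNAs sharing bases 2 to 7 with a member, and the 5 nearest to miR-451a. Named after their values were seen were miR-376a-3p, miR-155-5p, miR-96-5p, miR-142a-3p, miR-181a-5p and miR-342-3p. Counting intervals are exact Poisson (95%) and cover counting error only.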

Additional observations from a re-analysis of the deposited data

How the results depend on the processing

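The number of miRNAs called was 20. It was 43 with totals alone as the scaling, 64 without a filter and 111 in DESeq2. It was 0 both with a filter at a mean of 50 CPM (50 at an unadjusted p under 0.05) and in limma-voom (216 at an unadjusted p under 0.05). Leaving out a mouse gave between 0 (without M1, M5 or M6, with 181, 121 and 131 at an unadjusted p under 0.05 in edgeR) and 237 (without M4); it was 4 without M2 and 63 without M3. Leaving out M3 with M4, chosen after seeing the data, gave 576, log2 fold changes of 1.76 for miR-451a, 3.18 for miR-144-3p and 1.61 for miR-144-5p, all called, and -1.58 for the miR-144 arm ratio, also called. miR-144-5p was called in DESeq2 (1.58). Over the mice left out in turn miR-451a ran from 0.90 to 1.89, miR-144-5p from 1.32 to 2.004 and the arm ratio from -1.26 to 0.16, the positive value being that without M2. miR-144-5p was not tested at the 50 CPM filter, nor was miR-486a-5p, whose value was -0.11 when summed with miR-486b-5p. The ratios of miR-451a to miR-23a-3p (10 alternatives) and of miR-144-3p to miR-451a (8) kept their direction. With the GC trend removed miR-451a had 1.67 and miR-144-3p 1.91, neither called. The cause of these changes was not tested. Depth limited the miR-486 entries, with 7 to 74 reads a mouse. No paired analysis was possible because the labels give the mice of both groups no shared numbers.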
